A study of Mus musculus with 9 samples.

Results

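The NOD-like receptor and inflammasome genes described here are Nlrp3, Nlrp6, Nlrp9b, Nlrp10, Nlrc4, Naip1, Aim2, Pycard, Casp1 and Casp4, which are 10 of the 27719 genes in a table of colon read counts. Nlrp3, Nlrp6, Nlrp9b and Nlrp10 were chosen by their measured values in the comparisons below, since the last 3 were noted for moving against Nlrp3. Their levels are therefore given as a description, with no test. The other 6 were chosen by name as parts of the same pathway. All 10 were among the 12566 genes with enough counts for a test, but Nlrp3 passed that filter only through the DSS group, and Nlrp9b and Nlrp10 only through the control and DSS + EA groups.

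RNA came from the colons of 9 C57BL/6J mice, with 1 library for each mouse and 3 mice to a group (control, DSS, DSS + EA). Control mice drank distilled water, and mice of both other groups drank water with 2.5% dextran sodium sulfate (DSS), a sulfated sugar polymer that injures the colon lining, for 7 days. Electroacupuncture (EA), a weak current passed through needles, was given to the DSS + EA mice at the ST36 point of both hind limbs for 30 minutes at 2 Hz and 0.2 mA, once a day for 5 days, beginning after 5 days of modeling. Control and DSS mice were held for the same time without current, and no group with needles but no current is among these samples. The age and sex of the mice are not given in the sources used here.

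NOD-like receptors are proteins inside the cell that sense microbial products or signs of damage. Several of them, and the DNA sensor AIM2, assemble with the adaptor ASC, the product of Pycard, into an inflammasome, a complex that activates caspase-1. Caspase-1 cuts the precursors of IL-1β and IL-18 into their active forms and cuts gasdermin D, whose fragments open pores in the cell membrane. NLRP3 is best known from myeloid cells, while NLRP6 and NLRP9B are known from the intestinal epithelium.

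The windows upstream of the transcription start show the genes whose levels separated the groups most, and the neighbouring genes Casp1 and Casp4, whose levels did not move together. Sequences were taken from RefSeq on GRCm38.p6, and 9 of the 10 genes had a window. Nlrp10 had no entry. Each line below gives 250 bases, written 5′ to 3′ on the strand of the gene, and capitals mark matches to a searched motif.
Nlrp3, chr11:59541319-59541568, plus strand: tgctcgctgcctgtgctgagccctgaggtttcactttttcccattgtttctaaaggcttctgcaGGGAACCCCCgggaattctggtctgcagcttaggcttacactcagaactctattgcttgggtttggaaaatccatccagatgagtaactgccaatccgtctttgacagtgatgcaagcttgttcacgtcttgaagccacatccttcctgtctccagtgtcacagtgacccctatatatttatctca
Nlrp6, chr7:140920652-140920901, plus strand: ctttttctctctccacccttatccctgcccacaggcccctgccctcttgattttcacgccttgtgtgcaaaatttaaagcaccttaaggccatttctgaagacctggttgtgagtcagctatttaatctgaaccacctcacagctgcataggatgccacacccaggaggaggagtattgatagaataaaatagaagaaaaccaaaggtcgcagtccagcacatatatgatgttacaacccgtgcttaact
Nlrp9b, chr7:20007773-20008022, plus strand: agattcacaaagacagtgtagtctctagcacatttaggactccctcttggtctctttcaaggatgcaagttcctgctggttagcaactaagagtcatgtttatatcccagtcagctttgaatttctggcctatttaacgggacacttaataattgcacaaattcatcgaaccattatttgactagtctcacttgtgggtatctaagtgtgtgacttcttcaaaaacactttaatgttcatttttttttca
Casp1, chr9:5298267-5298516, plus strand: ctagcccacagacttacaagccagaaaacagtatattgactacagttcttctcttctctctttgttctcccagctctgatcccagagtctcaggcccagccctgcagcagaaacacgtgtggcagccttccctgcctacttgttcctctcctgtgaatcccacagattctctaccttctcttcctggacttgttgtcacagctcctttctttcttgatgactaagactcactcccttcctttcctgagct
Casp4, chr9:5308599-5308848, plus strand: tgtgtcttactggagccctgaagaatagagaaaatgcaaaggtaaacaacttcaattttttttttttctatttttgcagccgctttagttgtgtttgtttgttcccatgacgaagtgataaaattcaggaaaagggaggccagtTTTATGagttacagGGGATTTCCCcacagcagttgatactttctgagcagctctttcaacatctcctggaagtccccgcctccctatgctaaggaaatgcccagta

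Motifs of 3 kinds were searched on both strands of these windows. The kappa B type is GGGA, any 4 bases, then CC, and 17.6% of the 32851 windows in the RefSeq table held it. The interferon response type is GAAA, any 2 bases, then GAAA, held by 2.98% of windows, and the CDX type is TTTATG, held by 10.8%. RefSeq gave 2 starts for Nlrp3 and 2 for Casp4, and the window of the first is printed for each. The printed Nlrp3 window held 1 kappa B type match, which began 186 bases upstream of the start, and the window of the second Nlrp3 start, chr11:59542436-59542685, held no match. The printed Casp4 window, which shares most of its bases with the other, held a kappa B type match, found on both strands at the same bases 92 bases upstream, and a CDX type match 106 bases upstream, and these matches did not overlap. No match was found in the windows printed for Nlrp6, Nlrp9b and Casp1, or in those of Nlrc4, Naip1, Aim2 and Pycard. A match is a string of letters and not a measured binding site.

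In the mm10 build with GENCODE M21, the annotation release used here for positions, Nlrp6 (ENSMUSG00000038745) lies at chr7:140920902-140929192, Nlrp9b (ENSMUSG00000060508) at chr7:19991465-20073306 and Nlrp10 (ENSMUSG00000049709) at chr7:108921852-108930178. Pycard (ENSMUSG00000030793) is on the same chromosome, at chr7:127989708-127993867. Nlrp3 (ENSMUSG00000032691) lies at chr11:59541568-59566956. Casp1 (ENSMUSG00000025888, chr9:5298517-5307265) and Casp4 (ENSMUSG00000033538, chr9:5308828-5336783) are neighbours on the plus strand, with 1562 bases between them. Counts of Aim2 (ENSMUSG00000037860) and Pycard could include reads of the opposite-strand genes Cadm3 and Gm45205, which overlap them, because the use of strand in counting is not given in the sources used here. Naip1 (ENSMUSG00000021640) has close copies, Naip2, Naip5 and Naip6, between which reads could be divided. Nlrc4 (ENSMUSG00000039193) lies at chr17:74425438-74459142 and overlaps the locus CT033749.1. Naip1 is at chr13:100407764-100452869 and Aim2 at chr1:173350879-173466040. The Nlrp9b window lies inside the span of that gene because GENCODE M21 has transcripts with earlier starts.

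Libraries held between 2627695 and 4235576 counts. Levels are given as CPM, counts per 1000000 of a library total adjusted by the TMM method of edgeR, and can be compared between mice but not between genes. Where the mice of 2 groups are said not to overlap, this is a description only. The share of all genes that separate in this way was not counted. The summed CPM of 8 neutrophil markers was 23.6 to 158 in control mice, 4467 to 26718 in DSS mice and 1201 to 1593 in DSS + EA mice, and that of 11 monocyte and macrophage markers was 279 to 345, 1004 to 1897 and 626 to 842. The 8 epithelium markers summed to 5052 to 5845 CPM in control, 1029 to 3975 in DSS and 4153 to 5391 in DSS + EA mice, and all 8 were detected in each group. DSS mouse 1 had the lowest neutrophil sum and the highest epithelium sum of its group. Markers of pancreatic acinar cells summed to 510, 33306 and 14562 CPM in DSS + EA mice 1, 2 and 3. They summed to 120 to 259 in control and 41.4 to 96.1 in DSS mice, mostly from Cela1 (238, 259 and 118 CPM in control mice, 91, 48 and 41.1 in DSS mice). Cela2a stood at 77.5, 6530 and 2590 CPM in DSS + EA mice and at most 0.639 in any other mouse. Acinar RNA thus went with the DSS + EA group, and its part in the differences of that group was not tested. Squamous markers stayed at or below 36.7 in every library. In RNA from whole tissue, fewer cells of a type and less RNA per cell cannot be told apart.

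Nlrp3, a sensor of membrane damage and other danger signals, was detected in DSS and DSS + EA mice and in no control mouse. Its counts were 0 in all 3 control mice, 17, 89 and 80 in DSS mice, and 8, 4 and 7 in DSS + EA mice. In CPM, DSS mice stood at 5.43, 19.1 and 24.7 and DSS + EA mice at 2.42, 1.48 and 2.21. All DSS mice were above all DSS + EA mice, DSS mouse 1 was the lowest of its group, and the DSS + EA mice were close together. Against a floor of 3 counts in each control library, Nlrp3 was at least 17.0-fold higher in DSS mice and at least 2.12-fold higher in DSS + EA mice. In the DSS + EA group it was lower than in the DSS group by a fitted log2 fold change of -2.98 ± 0.60 (SE).

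Nlrp6, a sensor described in goblet cells and colonocytes, ran in the opposite direction. Control mice had 71.6, 58.0 and 66.7 CPM, DSS mice 10.2, 1.93 and 0.927 CPM, and DSS + EA mice 76.6, 70.8 and 65.3 CPM. The highest DSS mouse, mouse 1, lay far below the lowest mouse of either other group, and the control and DSS + EA groups overlapped. The fitted log2 fold change was -3.94 ± 0.60 for DSS against control and 4.06 ± 0.60 for DSS + EA against DSS. Without DSS mouse 1 these values were -5.44 and 5.55. DSS + EA against control differed by a log2 fold change of 0.11 ± 0.50.

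Nlrp9b, which has been described as a sensor of viral RNA in intestinal epithelial cells, had few counts in every library. They were 20, 12 and 10 in control mice, 1, 2 and 1 in DSS mice, and 16, 7 and 8 in DSS + EA mice. Nlrp10, a family member without the leucine-rich repeats of the others, had 16, 17 and 5 counts in control mice, 1, 2 and 0 in DSS mice, and 15, 6 and 11 in DSS + EA mice. For both genes every DSS mouse was below every mouse of the other groups, which overlapped each other.

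Summed over the 3 mice of a group, Nlrp9b gave 4 counts in the DSS group and 42 in the control group, a ratio per adjusted library total of 12-fold lower with an exact 95% interval of 4.37 to 46.2. For Nlrp10 the sums were 3 and 38, a ratio of 14.5-fold lower with an interval of 4.61 to 73.5. In the DSS + EA group Nlrp9b was 9.32-fold (3.29 to 36.3) and Nlrp10 12.8-fold (4.01 to 65.5) higher than in the DSS group. These intervals cover counting error only and leave out the spread between mice. Both genes were chosen by these values, so the intervals are a description and not a test. PCR copies were not told apart from separate molecules.

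Nlrc4 forms an inflammasome with NAIP proteins, which recognise flagellin or parts of the bacterial type III secretion needle. Nlrc4 stood at 24.0, 29.0 and 28.2 CPM in control mice, 28.1, 14.8 and 12.4 in DSS mice, and 35.1, 34.9 and 34.7 in DSS + EA mice. DSS mouse 1 lay within the control range and the other DSS mice lay below it, while all DSS + EA mice were above all mice of both other groups. Naip1, a sensor of the needle protein, stood at 81.2, 76.2 and 104 CPM in control mice, 59.4, 21.4 and 15.1 in DSS mice, and 109, 121 and 119 in DSS + EA mice, and its 3 groups did not overlap. Aim2, which binds DNA in the cytosol, stood at 32.5, 34.3 and 35.0 CPM in control mice, 20.8, 18.4 and 13.0 in DSS mice, and 33.0, 34.9 and 35.6 in DSS + EA mice. All DSS mice were below the other 2 groups for Aim2, and those overlapped.

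Pycard, the adaptor gene, stood at 505, 466 and 513 CPM in control mice, 302, 147 and 256 in DSS mice, and 575, 504 and 590 in DSS + EA mice. Casp1, the effector protease gene, stood at 67.4, 91.7 and 96.4 CPM in control mice, 44.4, 24.9 and 26.9 in DSS mice, and 119, 101 and 112 in DSS + EA mice. Both were lower in every DSS mouse than in any other mouse, and for Casp1 every DSS + EA mouse was also above every control mouse. Casp4, whose mouse product is called caspase-11 and binds lipopolysaccharide in the cytosol, stood at 30.8, 33.3 and 36.2 CPM in control mice, 29.4, 34.1 and 38.9 in DSS mice, and 36.0, 36.0 and 41.0 in DSS + EA mice. Its 3 groups overlapped.

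**Figure D1:**
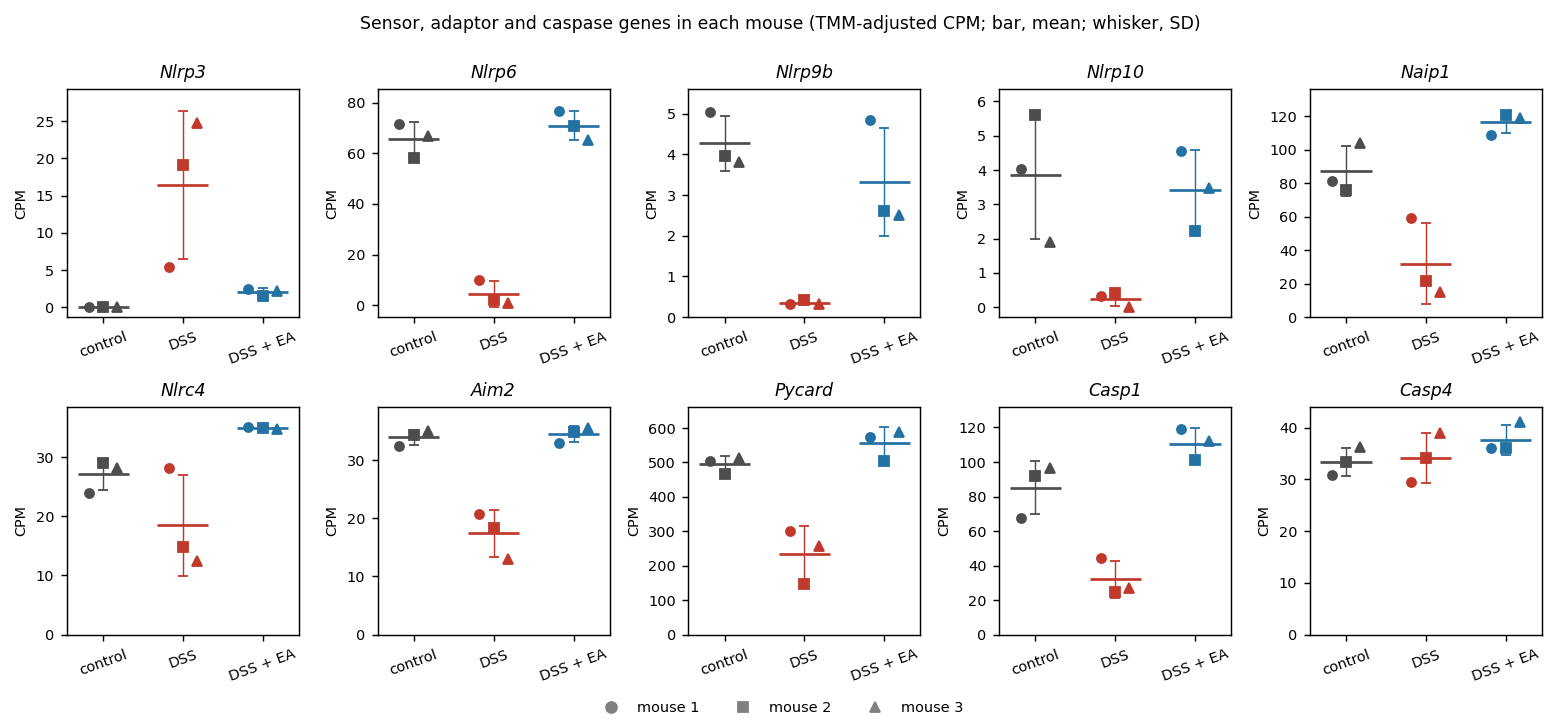
TMM-adjusted CPM (vertical axis) of the 10 genes in each mouse by group (control, DSS, DSS + EA), with 1 symbol per mouse, a bar at the mean and a whisker of 1 SD (n = 3). DSS mice are highest for Nlrp3, lowest for Nlrp6, Nlrp9b, Nlrp10, Naip1, Aim2, Pycard and Casp1, and overlap the control and DSS + EA mice for Casp4.

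Compared with the control group, Naip1, Aim2, Pycard and Casp1 were reduced in the DSS group, and Nlrc4 and Casp4 did not pass the test. Of the 6 genes with a test, 4 were called lower and 0 higher at an adjusted p under 0.05, where 19.5% of all genes tested were called lower and 21.5% higher, and DESeq2 gave the same counts, as did an unadjusted p under 0.05. DESeq2 was fitted to the 22099 genes with a count, and called 11.8% of them lower and 13.9% higher. The share of all genes at an unadjusted p was not counted, here or in the comparisons below. Casp1 fell by 1.41 on the log2 scale (SE 0.25, adjusted p = 0.00202), Pycard fell by 1.07 (SE 0.25, adjusted p = 0.00721) and Aim2 fell by 0.96 (SE 0.21, adjusted p = 0.00555). Naip1 fell by 1.45 (SE 0.42, adjusted p = 0.0206), and this call was lost without DSS mouse 2 (adjusted p = 0.0731) or control mouse 3 (adjusted p = 0.0643). Nlrc4 differed by -0.55 ± 0.29 (adjusted p = 0.151), and without DSS mouse 1 by -1 (adjusted p = 0.00292). Casp4 differed by 0.04 ± 0.19 (adjusted p = 0.893).

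Compared with the DSS group, Nlrc4, Naip1, Aim2, Pycard and Casp1 were increased in the DSS + EA group. These are 5 of the 6 genes with a test, and 0 were called lower by edgeR, by DESeq2 or at an unadjusted p under 0.05. Over all genes edgeR called 17.2% higher and 18.3% lower, and DESeq2 10.1% and 10.9%. The log2 fold change was 1.79 ± 0.25 for Casp1 (adjusted p = 0.00111) and 1.86 ± 0.42 for Naip1 (adjusted p = 0.00866). It was 1.24 ± 0.25 for Pycard (adjusted p = 0.00495) and 0.98 ± 0.21 for Aim2 (adjusted p = 0.00656). Nlrc4 rose by 0.92 ± 0.29 (adjusted p = 0.0323), and this call was lost without DSS + EA mouse 1, 2 or 3 or DSS mouse 2 or 3, with adjusted p between 0.068 and 0.0982. Casp4 differed by 0.14 ± 0.18 (adjusted p = 0.591). This comparison and the first share the DSS mice, so opposite signs in them are not separate evidence.

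Compared with the control group, 0 of these 6 genes were called in either direction in the DSS + EA group by edgeR, by DESeq2 or at an unadjusted p under 0.05. Over all genes edgeR called 3.00% higher and 0.637% lower, and DESeq2 2.54% and 0.615%. The log2 fold changes were 0.37 ± 0.28 for Nlrc4 (adjusted p = 0.568), 0.42 ± 0.41 for Naip1 (adjusted p = 0.658) and 0.38 ± 0.24 for Casp1 (adjusted p = 0.478). For these 3 genes, none of which passed the test, every DSS + EA mouse was above every control mouse. That is a description only, since the share of all genes that separate in this way was not counted. Aim2 (0.02 ± 0.20), Pycard (0.17 ± 0.24) and Casp4 (0.17 ± 0.19) overlapped between the groups. Of the 4 genes chosen by their values, only Nlrp3 had groups that did not overlap here.

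**Figure D2:**
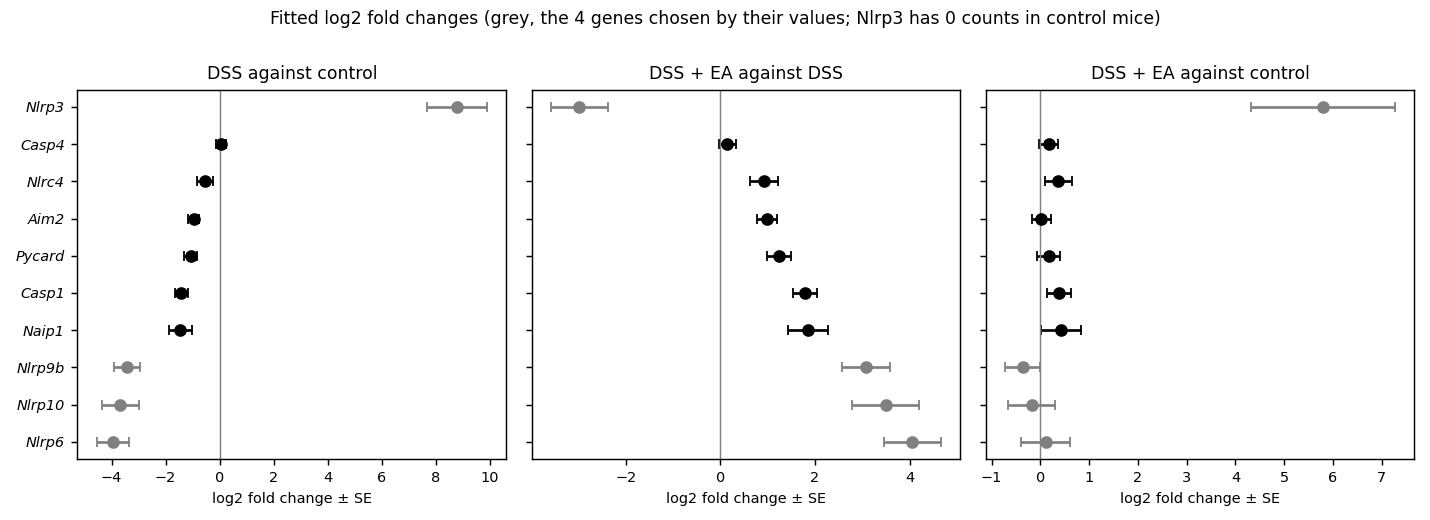
Fitted log2 fold changes (horizontal axes) with their SE for the 10 genes in the 3 comparisons, in black for the 6 genes with a test and in grey for the 4 chosen by their values. Casp4 lies within 0.2 of 0 in each panel, and the fitted Nlrp3 values against control depend on the prior count because its control counts are 0.

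Casp1 and Casp4, though neighbours in the genome, stood in a different ratio in DSS mice than in the other groups. Casp4 counts per 100 Casp1 counts were 45.7, 36.3 and 37.5 in control mice, 66.2, 137 and 145 in DSS mice, and 30.2, 35.5 and 36.6 in DSS + EA mice. Every DSS mouse was above the other groups, which overlapped. A ratio within a library shows that the genes differed from each other and not which of them was constant.

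Levels of these genes were set beside the marker sums of the same mice. Nlrp3 per 1000 summed CPM of monocyte and macrophage markers was 5.41, 14.1 and 13.0 in DSS mice and 2.87, 2.37 and 2.63 in DSS + EA mice, so that the DSS mice were still the higher group. Per 1000 summed CPM of neutrophil markers it was 1.22, 0.824 and 0.925 in DSS mice and 1.64, 1.23 and 1.39 in DSS + EA mice, so that here all DSS + EA mice were above all DSS mice. S100a8 made up most of the neutrophil sum in DSS mice 2 and 3 (15600 of 23158 and 19000 of 26718 CPM). The log2 fold changes of the 7 tested neutrophil markers in DSS + EA against DSS ran from -4.65 (S100a8) to -1.22 (Ly6g), so this order leaned on S100a8. The order of the groups thus depended on the markers chosen, and the part of these cells in the Nlrp3 difference was not tested.

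Per 10000 summed CPM of epithelium markers, Nlrp6 was 136, 115 and 114 in control mice, 25.7, 8.57 and 9.01 in DSS mice, and 142, 171 and 137 in DSS + EA mice. The log2 ratio of the DSS mean to the control mean was -3.07, and no DSS mouse reached the other groups. Markers of goblet cells and of surface colonocytes were also lower in DSS mice. The 7 goblet markers summed to 25020 to 39998 CPM in control mice, 1134 to 8944 in DSS mice and 21624 to 22576 in DSS + EA mice, with a median log2 difference of -3.13 for DSS against control. The 8 surface colonocyte markers summed to 11965 to 30391, 865 to 5678 and 7894 to 15973 CPM, with a median of -2.36. Their part in the Nlrp6 difference was not tested. On the scale of epithelium CPM the log2 ratio was -2.07 for Nlrp9b and -3.02 for Nlrp10, and for both the DSS mice again stayed below the others.

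Naip1 on this scale was 154, 151 and 178 in control mice against 149, 95.3 and 147 in DSS mice, a log2 ratio of -0.30 with the DSS mice still lower. Pycard, Casp1 and Aim2 overlapped between DSS and control mice once set per epithelium CPM, with log2 ratios of 0.50, 0.03 and 0.46. Pycard was 957, 922 and 878 in control mice and 760, 654 and 2490 in DSS mice. Casp1 was 128, 181 and 165 in control mice and 112, 111 and 261 in DSS mice. For both genes DSS mice 1 and 2 stayed below every control mouse, and only DSS mouse 3 lay above them. Aim2 was 61.7, 67.9 and 60 in control mice and 52.2, 81.9 and 126 in DSS mice. Nlrc4 and Casp4 were higher per epithelium CPM in every DSS mouse than in any control mouse, with log2 ratios of 0.76 and 1.70. Casp4 per 10000 epithelium CPM was 58.4, 65.9 and 61.9 in control mice and 73.9, 151 and 378 in DSS mice, with the highest value in DSS mouse 3, which had the lowest epithelium sum. Per 1000 summed CPM of monocyte and macrophage markers the order was the opposite. There Casp4 was 110 ± 12.6 (SD, n = 3) in control and 25 ± 4.38 in DSS mice, and Nlrc4 was 88.3 ± 5.73 and 15.1 ± 11.4. Casp1, Pycard and Aim2 were likewise lower in every DSS mouse than in any control mouse on that scale, and for all 5 genes the DSS + EA mice lay between the control and DSS mice. The part of the epithelium and of these myeloid cells in the differences was not tested.

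**Figure D3:**
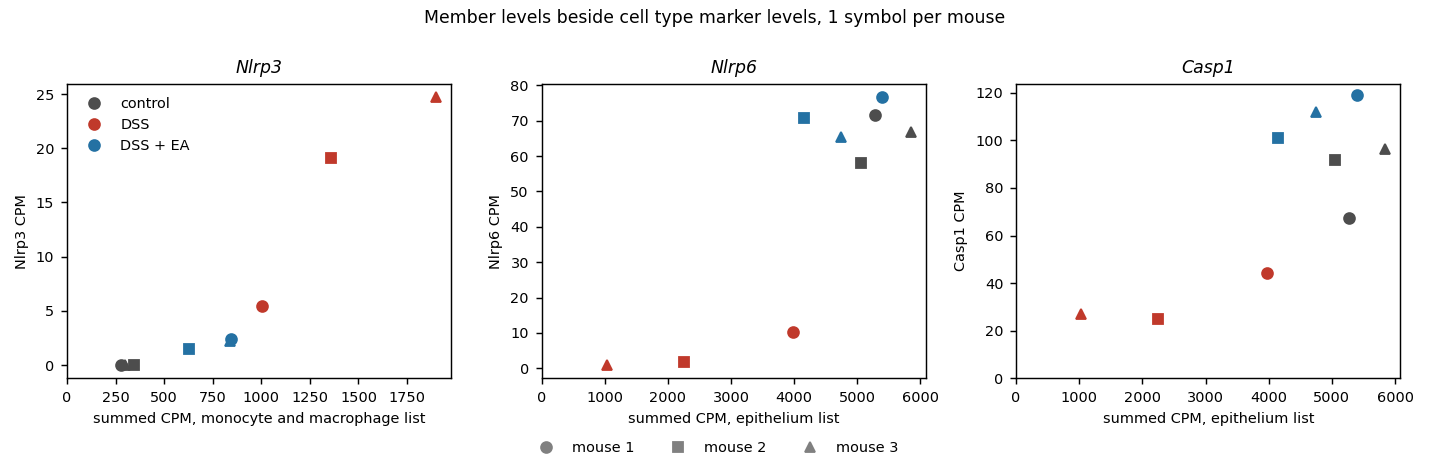
CPM of Nlrp3, Nlrp6 and Casp1 (vertical axes) against the summed CPM of monocyte and macrophage markers or epithelium markers (horizontal axes), with 1 symbol per mouse. Nlrp6 is 0.927 to 10.2 CPM in DSS mice, which have epithelium sums of 1029 to 3975 CPM. It is 58.0 to 71.6 CPM in control mice (sums of 5052 to 5845) and 65.3 to 76.6 CPM in DSS + EA mice (sums of 4153 to 5391). The part of the marker levels in these differences was not tested.

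The genes nearest in pattern were found by the root-mean-square difference of mean-centred log2 CPM over the 9 libraries, among 10836 genes with a mean of at least 10 counts. For Nlrp3 they were Slc15a3, a transporter of bacterial peptides out of endosomes (0.34), Pirb, an inhibitory receptor of myeloid and B cells (0.34), Srgn, a proteoglycan of secretory granules (0.38), and Msr1, a macrophage scavenger receptor (0.38). For Nlrp6 they were Sptssb (0.34), the ubiquitin ligase gene Rnf186 (0.39), the zinc transporter gene Slc39a5 (0.40) and Akr1c14 (0.42). For Nlrp10 they were the potassium channel subunit gene Kcne3 (0.29), Ctse (0.31), the water channel gene Aqp4 (0.31) and Eppk1 (0.32). For Casp1 the nearest was Sh3bgrl2 (0.17) and for Casp4 Man2c1 (0.06). These distances describe 9 libraries that share the same groups and depths. For Nlrp9b the nearest was Ccdc191 (0.24).

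The other genes of the pathway were counted in 5 lists that leave these 10 genes out, with 96 genes in the table and 69 with enough counts for a test. Compared with the control group, 24 of the 69 were called higher and 14 lower in the DSS group, against 21.5% and 19.5% of all genes. Compared with the DSS group, 23 rose and 15 fell in DSS + EA mice, against 17.2% and 18.3% of all genes. Compared with the control group, 17 rose and 0 fell in DSS + EA mice, against 3.00% and 0.637% of all genes. At an unadjusted p under 0.05 the counts were 28 and 1. By DESeq2, whose fit also held list genes outside the 69, they were 25 and 0, against 2.54% and 0.615% of 22099 genes. This last count of 17 became 7 without DSS + EA mouse 1, 4 without DSS + EA mouse 3, 3 without control mouse 1, 4 without control mouse 2 and 10 without control mouse 3. The 14 genes called lower in the DSS group became 9 without DSS mouse 2, and the 15 called lower in the DSS + EA group became 8 without DSS + EA mouse 3. Each fit without 1 mouse filtered the genes again, and tested 70 to 73 of the list genes.

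**Figure D4:**
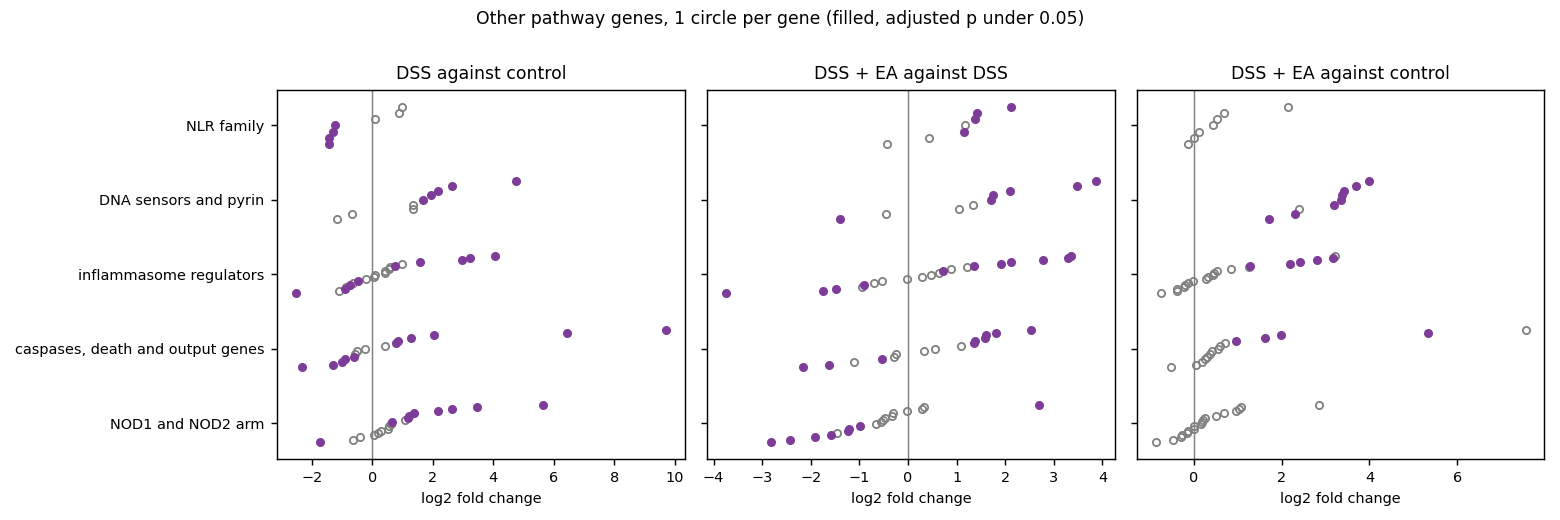
Log2 fold changes (horizontal axes) of the tested genes of 5 pathway lists in the 3 comparisons, with 1 circle per gene, filled where the adjusted p is under 0.05. The 4 filled circles of the NLR family lie below 0 in the DSS against control panel and above 0 in the DSS + EA against DSS panel, and 8 of 9 DNA sensor circles are filled in the DSS + EA against control panel. Over all genes, 19.5% were called lower, 17.2% higher and 3.00% higher in these panels, in that order.

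Of the 22 other NLR family genes in the table, 9 had no count in any library, among them Nlrp2 and Nlrp14, and 7 had enough counts for a test. In the DSS group 4 of the 7 were called lower and 0 higher, against 19.5% and 21.5% of all genes. Their median log2 fold change was -1.25 against 0.02 over all genes, and 1 was called higher at an unadjusted p under 0.05 and 1 by DESeq2. The NAIP genes, receptors for flagellin (Naip5, Naip6) and for the inner rod of the secretion needle (Naip2), moved with Naip1. Naip6 fell by 1.25 on the log2 scale (SE 0.22, adjusted p = 0.00183), Naip5 fell by 1.30 (SE 0.26, adjusted p = 0.00399) and Naip2 fell by 1.42 (SE 0.26, adjusted p = 0.00246) in the DSS group. They rose in the DSS + EA group over the DSS group by 1.37 ± 0.22 (adjusted p = 0.00181), 1.16 ± 0.27 (adjusted p = 0.00884) and 1.43 ± 0.26 (adjusted p = 0.00344). Reads of the 4 NAIP genes could have been divided between them.

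Ciita, the master switch of MHC class II genes, was the remaining NLR family gene called lower, at 4.04, 2.97 and 2.29 CPM in control mice, 0.639, 1.93 and 0.618 in DSS mice and 3.93, 4.45 and 6.94 in DSS + EA mice. Its fall of 1.44 (SE 0.51, adjusted p = 0.0471) was not called without any 1 of DSS mice 1 and 3, control mice 1, 2 and 3 and DSS + EA mice 1, 2 and 3 (adjusted p 0.0545 to 0.153), nor by DESeq2 (adjusted p = 0.0933). Its rise in the DSS + EA group was 2.12 ± 0.49 (adjusted p = 0.00936). Nod1, a sensor of bacterial cell wall peptides, had 3.43 ± 0.991 CPM (SD, n = 3) in control and 6.25 ± 1.27 in DSS mice (adjusted p = 0.0697, and 0.0459 without DSS mouse 1). Nod2, its relative, had 0 counts in all control mice, 2, 6 and 2 in DSS mice and 5, 2 and 4 in DSS + EA mice, too few for a test.

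Nlrx1, an NLR of mitochondria, differed by 0.08 ± 0.26 between the DSS and control groups (adjusted p = 0.836). Nlrc5, the switch of MHC class I genes, had 2.02, 0.659 and 1.90 CPM in control mice, 1.28, 3.43 and 4.33 in DSS mice and 9.08, 3.34 and 8.20 in DSS + EA mice, with an adjusted p of 0.227 for DSS against control. Its DSS + EA mice were all above the control mice (log2 fold change 2.14 ± 0.57, adjusted p = 0.0771, and 0.0415 without DSS mouse 1). Nlrp1b, the anthrax toxin sensor, had 6, 6 and 4 counts in control mice, 0, 0 and 1 in DSS mice and 2, 3 and 4 in DSS + EA mice, and was not tested. Nlrp1a had 1 count in all.

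The list of DNA sensors and pyrin holds relatives of Aim2. Of 9 genes tested, 5 were called higher and 0 lower (1 lower at an unadjusted p under 0.05 and 1 by DESeq2), with a median log2 fold change of 1.68. Ifi207, an Aim2-like nuclear protein gene, had 1.26, 0.659 and 1.14 CPM in control mice, 9.26, 32.4 and 44.8 in DSS mice and 12.4, 7.42 and 12.9 in DSS + EA mice, a rise of 4.76 ± 0.64 in the DSS group (adjusted p = 0.000468). Tmem173, which encodes the DNA pathway adaptor STING, rose by 2.17 ± 0.31 (adjusted p = 0.000659). Ifi211 rose by 2.64 ± 0.76 (adjusted p = 0.0201), a call lost without DSS mouse 3 or control mouse 1 or 2 (adjusted p 0.0672 to 0.0803). The count of 5 became 3 without DSS mouse 2 or control mouse 1 and 2 without DSS mouse 3. Each fit without 1 mouse filtered the genes again, and tested 10 to 12 genes of this list, here and below. Reads of the closely related genes of this Ifi family could have been divided between them.

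In the DSS + EA group 8 of these 9 genes were called higher than in control mice, and none was called lower by edgeR, by DESeq2 or at an unadjusted p under 0.05. Over all genes tested, 3.00% were called higher and 0.637% lower. The median log2 difference of these 9 genes was 3.36. Ifi211 rose by 3.98 ± 0.76 (adjusted p = 0.0193), Ifi207 by 3.36 ± 0.66 (adjusted p = 0.0237) and Tmem173 by 1.71 ± 0.31 (adjusted p = 0.0171). Without DSS + EA mouse 1 or 3 or control mouse 1 or 2 all 3 calls were lost (adjusted p 0.0521 to 0.124), and without control mouse 3 those of Ifi207 and Tmem173. Zbp1, a sensor of Z-form nucleic acid that acts through RIPK3, was singled out after its values were seen. It had 34.1, 58.4 and 91.4 CPM in control mice, 17.9, 18 and 45.4 in DSS mice and 325, 244 and 333 in DSS + EA mice, so that all DSS + EA mice were above all others. Zbp1 rose by 2.30 ± 0.43 over the control group (adjusted p = 0.0187) and by 3.47 ± 0.46 over the DSS group (adjusted p = 0.000775), and DSS against control differed by -1.17 ± 0.43 (adjusted p = 0.0513, and 0.00786 without DSS mouse 3 or 0.0273 without control mouse 1). The 8 calls against control became 2 without DSS + EA mouse 1, 0 without DSS + EA mouse 3, 0 without control mouse 1, 1 without control mouse 2 and 5 without control mouse 3, and the adjusted p of Zbp1 was then 0.0579 to 0.0975 where its call was lost.

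Against the DSS group, 5 of the 9 genes rose and 1 fell in DSS + EA mice, where 17.2% of all genes rose and 18.3% fell. The gene called lower was Ifi207 (-1.40 ± 0.48, adjusted p = 0.0466), and this call was not kept without any 1 of DSS + EA mice 1, 2 and 3, DSS mice 2 and 3 and control mice 1, 2 and 3 (adjusted p 0.0659 to 0.154). The count of 5 became 2 without DSS + EA mouse 1 or 3, 3 without DSS mouse 2 and 8 without DSS mouse 3. Mefv, the pyrin gene, had 1, 1 and 0 counts in control mice, 2, 33 and 62 in DSS mice and 7, 3 and 10 in DSS + EA mice, and was not tested.

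Of 20 inflammasome regulators tested, 5 rose and 4 fell in DSS mice, shares near the 21.5% and 19.5% of all genes, and the median log2 fold change was 0.25. The 5 became 2 without control mouse 1 and 3 without control mouse 2 or 3, while the 4 became 2 without DSS mouse 2. Pstpip1, a partner of pyrin in leukocytes, had 2.27, 2.31 and 0.762 CPM in control mice, 5.11, 29.8 and 59.3 in DSS mice and 1.82, 3.34 and 1.89 in DSS + EA mice, a rise of 4.07 ± 0.80 (adjusted p = 0.00333) followed in the second comparison by -3.75 ± 0.78 (adjusted p = 0.006). Ptpn22, a phosphatase gene of leukocytes, rose by 2.98 ± 0.66 (adjusted p = 0.00572). Pstpip1 and Ptpn22, and Il1a and Slc15a3 below, passed the count filter only through the DSS group, where they were high. This limits what their p-values show. Gbp5, an interferon-induced GTPase that promotes NLRP3 assembly, rose by 3.23 ± 0.85 (adjusted p = 0.0133, and 0.0541 without control mouse 1).

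Trim31, a ubiquitin ligase that marks NLRP3 for breakdown, had 40.1, 59.4 and 67.4 CPM in control mice, 17.9, 7.08 and 4.02 in DSS mice and 119, 68.6 and 110 in DSS + EA mice. It fell by 2.53 in the DSS group (SE 0.47, adjusted p = 0.00248) and rose by 3.36 ± 0.48 in the DSS + EA group (adjusted p = 0.00115). Brcc3, which removes ubiquitin from NLRP3, fell by 0.73 (SE 0.20, adjusted p = 0.0148, and 0.0571 without control mouse 2) and rose by 0.72 ± 0.20 (adjusted p = 0.0189, and 0.0555 to 0.0732 without DSS + EA mouse 2 or 3 or DSS mouse 2). Irf1, a transcription factor of interferon responses, fell by 0.89 (SE 0.24, adjusted p = 0.0149, and 0.0572 without DSS mouse 2) and rose by 1.35 ± 0.24 (adjusted p = 0.00297).

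Txnip, whose product binds NLRP3 under oxidative stress, had 338, 192 and 230 CPM in DSS mice and 86.8, 107 and 77.2 in DSS + EA mice, with 174, 140 and 140 in control mice. It fell by 1.49 in the DSS + EA group (SE 0.24, adjusted p = 0.00189), and its rise of 0.74 ± 0.24 in the DSS group (adjusted p = 0.0297) was lost without DSS mouse 1 or any control mouse (adjusted p 0.0559 to 0.116). Nek7, a kinase needed for NLRP3 assembly, differed by 0.58 ± 0.39 in the DSS group (adjusted p = 0.26). P2rx7, an ATP-gated channel gene, differed by 0.97 ± 0.36 (adjusted p = 0.0556), and by an adjusted p of 0.0461 without DSS mouse 1 and 0.0394 without DSS mouse 2. In the DSS + EA group 7 of the 20 regulators were called higher and 4 lower than in the DSS group, against 17.2% and 18.3% of all genes. Against the control group, where 3.00% of all genes were higher and 0.637% lower, 5 were higher and 0 lower (1 lower at an unadjusted p under 0.05 and 0 by DESeq2). These 5 became 2 without DSS + EA mouse 1 or control mouse 3, and 1 without DSS + EA mouse 3 or control mouse 1 or 2.

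Of 15 caspase, death and output genes, 6 rose and 5 fell in DSS mice (median log2 fold change -0.24), against 21.5% and 19.5% of all genes. Il1b, the IL-1β gene, had 1.01, 1.32 and 3.05 CPM in control mice, 36.4, 149 and 267 in DSS mice and 132, 27.4 and 52.3 in DSS + EA mice. Il1b rose by 6.44 ± 0.95 in the DSS group (adjusted p = 0.000724) and stood 5.34 ± 0.93 above control in the DSS + EA group (adjusted p = 0.0137, and 0.0916 without control mouse 1 or 0.079 without control mouse 2). DSS and DSS + EA mice overlapped for Il1b, and the difference of -1.10 ± 0.68 did not pass the test (adjusted p = 0.23, and 0.046 without DSS mouse 1). No DSS + EA mouse reached the DSS range for Nlrp3, but Nlrp3 was chosen by these values, so no contrast with Il1b is drawn.

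Il1a, the IL-1α gene, had 0 counts in all control mice, 27, 154 and 172 in DSS mice and 41, 8 and 18 in DSS + EA mice. Against the same floor Il1a was at least 32.8-fold higher in DSS mice (adjusted p = 0.0015). In the DSS + EA group it fell by 2.15 (SE 0.69, adjusted p = 0.044), which was lost without DSS + EA mouse 2 or 3, DSS mouse 2 or 3 or control mouse 1 or 2 (adjusted p 0.0503 to 0.126). Il18, which colon epithelium expresses, had 164, 148 and 59.8 CPM in control mice, 179, 51.0 and 34.6 in DSS mice and 217, 154 and 192 in DSS + EA mice, and its groups overlapped. Il18 differed by -0.50 ± 0.56 in the DSS group (adjusted p = 0.506) and by 1.09 ± 0.57 in the DSS + EA group (adjusted p = 0.155). Without DSS mouse 1 these were -1.55 (adjusted p = 0.0112) and 2.15 (adjusted p = 0.00304).

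Gsdmd, the gasdermin D gene and a substrate of caspase-1, had 106, 95 and 84.2 CPM in control mice, 63.9, 53.0 and 68.0 in DSS mice and 175, 172 and 206 in DSS + EA mice, and its 3 groups did not overlap. It fell by 0.62 in the DSS group (SE 0.18, adjusted p = 0.0191, and 0.0635 without DSS mouse 2 or 0.0674 without control mouse 1). It rose by 1.58 ± 0.18 over the DSS group (adjusted p = 0.000472) and by 0.96 ± 0.18 over the control group (adjusted p = 0.0177). The last call was lost without any 1 DSS + EA or control mouse (adjusted p 0.0516 to 0.134).

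Gsdme, a related pore gene, fell by 2.34 in the DSS group (SE 0.46, adjusted p = 0.00345) and rose by 1.82 ± 0.47 in the DSS + EA group (adjusted p = 0.0145, and 0.0534 without DSS mouse 2). Fadd, the death receptor adaptor gene, fell by 1.30 (SE 0.31, adjusted p = 0.00922) and rose by 1.35 ± 0.31 (adjusted p = 0.00974). Casp8, the protease it recruits, fell by 0.89 (SE 0.26, adjusted p = 0.0205, and 0.0535 to 0.0605 without DSS mouse 2 or 3 or control mouse 2) and rose by 1.60 ± 0.26 (adjusted p = 0.00193).

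Ripk3, the kinase gene of necroptosis, had 22.2, 23.4 and 24.4 CPM in control mice, 64.8, 51.5 and 53.8 in DSS mice and 72.0, 54.5 and 89.2 in DSS + EA mice, with rises over control of 1.28 ± 0.22 (adjusted p = 0.00146) and 1.62 ± 0.22 (adjusted p = 0.00467). Mlkl, which encodes the pore protein that RIPK3 activates, was singled out after its values were seen, at 14.9, 20.1 and 26.3 CPM in control mice, 12.5, 14.8 and 13.9 in DSS mice and 80.2, 63.0 and 98.4 in DSS + EA mice. Mlkl rose by 2.54 ± 0.26 over the DSS group (adjusted p = 0.000359) and by 1.98 ± 0.26 over the control group (adjusted p = 0.00445). Of the 15 genes of the list, 6 rose and 3 fell in DSS + EA mice against DSS mice, where 17.2% of all genes rose and 18.3% fell. Against control 4 were higher and 0 lower by edgeR (0 lower by DESeq2 or at an unadjusted p under 0.05), where the shares of all genes were 3.00% and 0.637%. The 5 genes lower in the DSS group became 2 without DSS mouse 2 and 3 without control mouse 1 or 2. The 3 genes lower against DSS became 1 without DSS + EA mouse 2, DSS mouse 2 or 3 or control mouse 1 or 2, and 0 without DSS + EA mouse 3, and the 4 genes higher against control became 2 without control mouse 1 or 2.

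**Figure D5:**
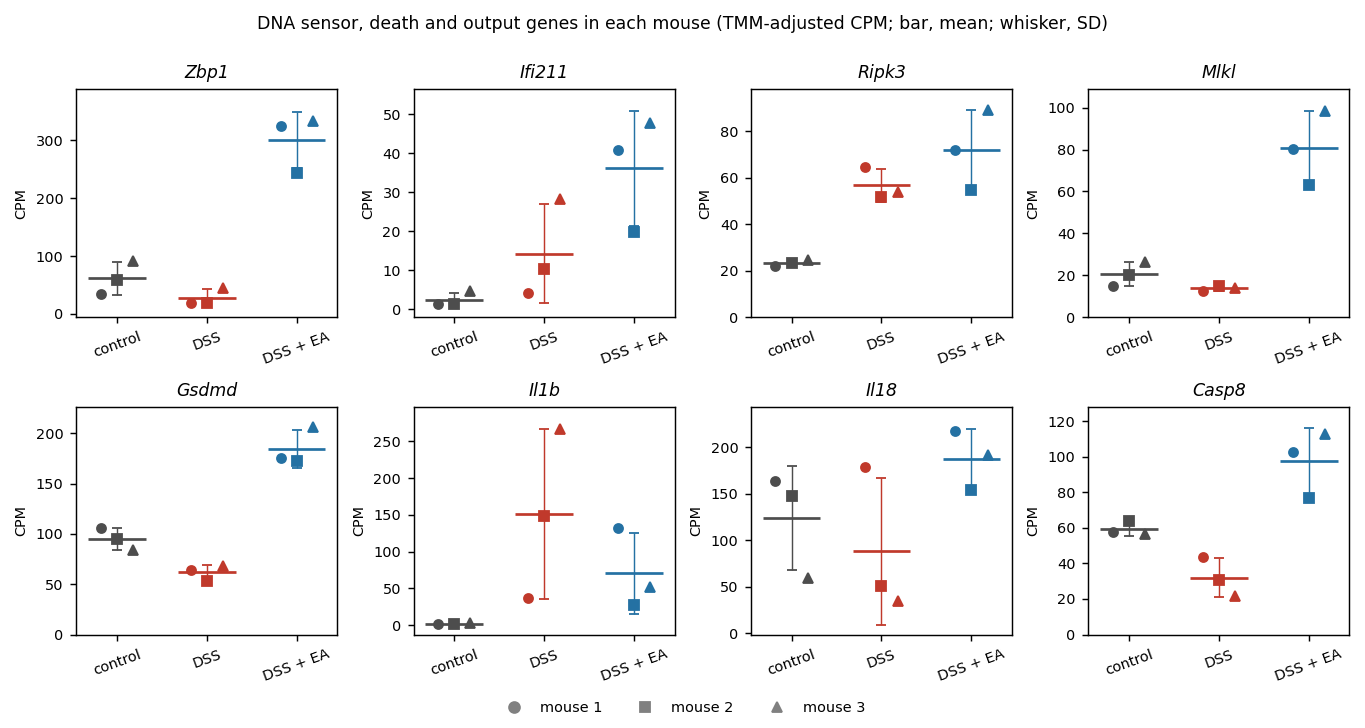
TMM-adjusted CPM (vertical axis) of 8 genes in each mouse by group (control, DSS, DSS + EA), with 1 symbol per mouse, a bar at the mean and a whisker of 1 SD (n = 3). Zbp1, Mlkl and Gsdmd are highest in all 3 DSS + EA mice, Il1b is spread widely in DSS and DSS + EA mice, and Il18 groups overlap.

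Of 18 tested genes of the NOD1 and NOD2 arm, which signals to NF-κB without an inflammasome, 8 were called higher and 1 lower in the DSS group, with a median log2 fold change of 0.62. Over all genes 21.5% were called higher and 19.5% lower, with a median of 0.02. Slc15a3 counts were 3, 2 and 0 in control mice, 31, 136 and 142 in DSS mice and 17, 9 and 10 in DSS + EA mice, the order seen for Nlrp3. The ratio of summed Slc15a3 counts was 53.9-fold higher in the DSS group (exact 95% interval 22.8 to 167, counting error only; adjusted p = 0.000377), and Slc15a3 fell by 2.82 in the DSS + EA group (SE 0.55, adjusted p = 0.00452). Nfkbia, which encodes an inhibitor of NF-κB that NF-κB itself induces, rose by 3.46 ± 0.27 (adjusted p = 3.33e-05) and fell by 2.42 (SE 0.26, adjusted p = 0.000391). Tnfaip3, the gene of the ubiquitin-editing negative regulator of NF-κB, rose by 2.65 ± 0.29 (adjusted p = 0.000176) and fell by 1.58 (SE 0.27, adjusted p = 0.00258).

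Rnf31, a subunit gene of the linear ubiquitin ligase complex, was the gene called lower, with a fall of 1.72 (SE 0.37, adjusted p = 0.00492) and a rise of 2.69 ± 0.36 in the DSS + EA group (adjusted p = 0.000821). The arm had 1 gene that rose and 7 that fell in DSS + EA mice against DSS mice, where 17.2% of all genes rose and 18.3% fell. Its median was -0.60 against -0.02 over all genes. Against control 0 of the 18 were called by edgeR in either direction, where 3.00% of all genes were called higher and 0.637% lower. At an unadjusted p under 0.05, 5 were higher and 0 lower, but the share of all genes at that threshold was not counted. By DESeq2 2 were higher and 0 lower, against 2.54% and 0.615% of the 22099 genes in its fit. Ripk2, the kinase gene of the arm, had 1.65 to 2.27 CPM in control mice, 0.927 to 4.93 in DSS mice and 1.11 to 9.38 in DSS + EA mice, and was not tested.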

How the data were processed

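Total RNA from the colon of each mouse was made into PCR-amplified libraries of full-length cDNA, which were read on a Nanopore PromethION, per the labels. The authors deposited raw counts of reads for each gene. The submitters' processing notes name the mm10 build, and the aligner, the counter, the annotation and the use of strand are not given in the sources used here, so reads of close copies, overlapping or antisense genes could have been divided. Of 27733 lines, 14 without counts were skipped.

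Counts of the 9 libraries (2627695 to 4235576 in total, so that 3 counts equal 0.708 to 1.14 CPM) were fitted together in R 4.3.3 with edgeR 4.0.16 (TMM, filterByExpr, prior count 0.125, quasi-likelihood F test, group as the only term). A call is a Benjamini-Hochberg adjusted p under 0.05 over all 12566 genes tested. Standard errors are those implied by the F statistic. Tables, intervals and figures were made with Python 3.11.15, pandas 2.3.3 and matplotlib 3.10.9. In simulated counts for DSS against control (12566 genes, 200 changed by 2 on the log2 scale), edgeR called 94% of the changed genes and 7 others, and DESeq2 1.42.0 called 93% and 18 others. The simulation gave every gene and group the same relative spread and changed only genes with higher counts. It checked that the fit runs, and its shares do not carry over to the measured data or to genes with few counts.

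The 10 genes, the pathway lists and the marker lists were chosen with earlier results of these data known. Genes named are the 10, up to 3 called genes per direction of each list with the smallest P for DSS against control, a fixed set of NLR, cytokine and regulator genes, and the 4 nearest in pattern of 6 of the 10 (for some the first only is printed). Any others are said to be singled out after their values were seen. Alternatives were DESeq2, RLE normalization, library totals, other filters, only the 2 groups compared, the study's thresholds (log2 fold change beyond 2.5 and P under 0.01), a replicate block, a prior count of 2, and each mouse left out. Same-numbered mice are different animals. The p-values rest on the spread between mice within groups, which the fit estimates from all 3 groups together. Groups of 3 were not tested for outlying samples. Protein sequences were not used here.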

Additional observations from a re-analysis of the deposited data

How the results depend on the processing

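Of the 500 alternative values of the 10 genes' log2 fold changes, 471 kept their side of the threshold or stayed within 1 SD, 12 moved by more than that, 9 lost and 1 gained a call, and 7 changed sign. The sign changes were in differences near 0 that were never called. They were Aim2 in DSS + EA against control (-0.01 with library totals, -0.03 with a mean of at least 20 counts, -0.04 without DSS + EA replicate 3, -0.01 without control replicate 1) and Casp4 in DSS against control (-0.0006 with no filter, -0.07 without DSS replicate 3, -0.06 without control replicate 1). Nlrx1 in DSS against control gave -0.19 without control replicate 3. Over all mice left out in turn, these ranged from -0.04 to 0.05 for Aim2, from -0.07 to 0.11 for Casp4 and from -0.19 to 0.22 for Nlrx1. With a prior count of 2 the fitted log2 fold change of Nlrp3 in DSS against control was 4.83 instead of 8.78, and that of DSS + EA against control 2.14 instead of 5.79, since its control counts are 0. In fits of only the 2 groups compared, Nlrc4 in DSS + EA against DSS (adjusted p = 0.0715) and Naip1 in DSS against control (adjusted p = 0.0519) lost their calls. Nlrp9b and Nlrp10 were left out by the filter on a mean of at least 20 counts. For the pathway genes named, 919 alternative values kept their side of the threshold, 78 lost a call and 16 gained one.

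The number of genes called was 5144 for DSS against control, 4457 for DSS + EA against DSS and 457 for DSS + EA against control. With the study's thresholds it was 1280, 806 and 261, and the pathway lists had 10 higher and 1 lower, 7 higher and 2 lower, and 12 higher and 0 lower. DESeq2 called 697 genes for DSS + EA against control. A fit of only the 2 groups compared called 1149 genes, with 26 list genes higher and 1 lower, for DSS + EA against control, and 9 list genes lower for DSS + EA against DSS. Leaving out each mouse in turn gave 4090 to 6400, 3033 to 6061 and 110 to 772 genes, and list counts of 17 to 27 higher and 9 to 16 lower, 19 to 27 higher and 8 to 18 lower, and 3 to 24 higher and 0 to 1 lower. The cause of these shifts was not tested. With the replicate block, 4543, 3829 and 364 genes were called and 9 list genes instead of 15 were lower for DSS + EA against DSS. Among the pathway genes named, the block removed the calls of Ifi207 (adjusted p = 0.082) and Il1a (adjusted p = 0.113) there and of Ciita in DSS against control (adjusted p = 0.0808). It added calls of Il18 in DSS + EA against DSS (adjusted p = 0.0428) and of Zbp1 in DSS against control (adjusted p = 0.02). The block changed no call of the 6 tested genes among the 10. Deviations of same-numbered mice correlated between -0.16 and 0.105 across groups, and the numbers did not pair the mice. Depth limits Nlrp3, with 0 counts in each control library, and Nlrp9b and Nlrp10, with 0 to 2 counts in each DSS library.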
